A study of Bos taurus with 20 samples.

Results

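Endometrium, the lining of the uterus, was compared between day 18, near the end of the estrous cycle, and day 0, the estrus that opens it. No library of the series was labelled with a later day, so the estrus after day 18 was not sampled. The comparison used 8 of the 20 libraries of the series: the 4 labelled day 18 and the 4 labelled day 0, chosen by their labelled day alone. Each library came from a biopsy of 1 virgin Holstein heifer, at least 7 months old and not lactating. All animals had been through the same 5-day Co-synch protocol, with a GnRH analog, an intravaginal progesterone device and 2 doses of the prostaglandin F2α analog cloprostenol. They were then assigned at random to a biopsy day, so days 0 and 18 are different animals in a hormonally set cycle, with 4 animals per day.

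In cattle, a corpus luteum forms after ovulation and secretes progesterone through the luteal phase. Late in the cycle the uterus releases prostaglandin F2α in pulses, the corpus luteum regresses, progesterone falls and estradiol from the growing follicle brings on estrus. Estradiol and progesterone act on the endometrium through nuclear receptors that control transcription, and the glands and surface epithelium of the tissue secrete the fluid that fills the uterine lumen. Day 18 lies near this regression and day 0 is estrus itself.

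The count tables held 27607 Ensembl gene IDs, of which 16947 passed a low-count filter. Total counts were 22730313 to 26644679 per library on day 0 and 21234000 to 24274750 on day 18. No table used here pairs the IDs with names, so genes are described as groups by the direction of their change, and 4 are printed by ID. For the same reason, the labelled tissue could not be checked against epithelial, stromal, vascular or immune markers. In bulk tissue, fewer cells of a type and less RNA per cell cannot be told apart.

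The day 18 libraries were less alike than the day 0 libraries, and replicates 1 and 3 of day 18 stood apart. The correlation of log2 CPM (the log2 of counts relative to the scaled library size, with a prior count of 2) across genes was 0.967 to 0.975 between pairs of day 0 libraries. Between day 18 replicates 2 and 4 it was 0.962, and in the 5 day 18 pairs with replicate 1 or 3 it was 0.863 to 0.918. The median SD of log2 CPM per gene was 0.280 on day 0 and 0.550 on day 18. Leaving out day 18 replicate 1 brought it to 0.440 and leaving out replicate 3 to 0.472. Of the 16947 genes, 84.7% had the larger SD on day 18, and 3738 had an SD over 1 on day 18 against 708 on day 0. Genes of a library vary together, so these values describe the libraries only.

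Between day 18 and day 0, 394 genes differed in a way that held in every animal: 280 were higher at estrus and 114 were lower. A change was counted as held when the edgeR quasi-likelihood test gave a Benjamini-Hochberg adjusted p under 0.05 and all 4 day 18 libraries lay on one side of all 4 day 0 libraries. The test alone called 297 genes higher (1.75% of those tested) and 182 lower (1.07%). The held genes were 94.3% of the calls that were higher on day 0 and 62.6% of those that were lower. The days did not overlap in 978 genes that were higher on day 0 (5.77%) and 667 that were lower (3.94%), whether or not the test called them. Of these, 698 and 553 did not pass the test. Of the 68 calls that were lower on day 0 with overlap, 66 overlapped through day 18 replicate 1 alone, as did 11 of the 17 that were higher. Of the calls 62.0% were higher on day 0, and of the held genes 71.1%. With libraries scaled by total counts alone these shares were 45.9% and 57.7%.

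**Figure D1:**
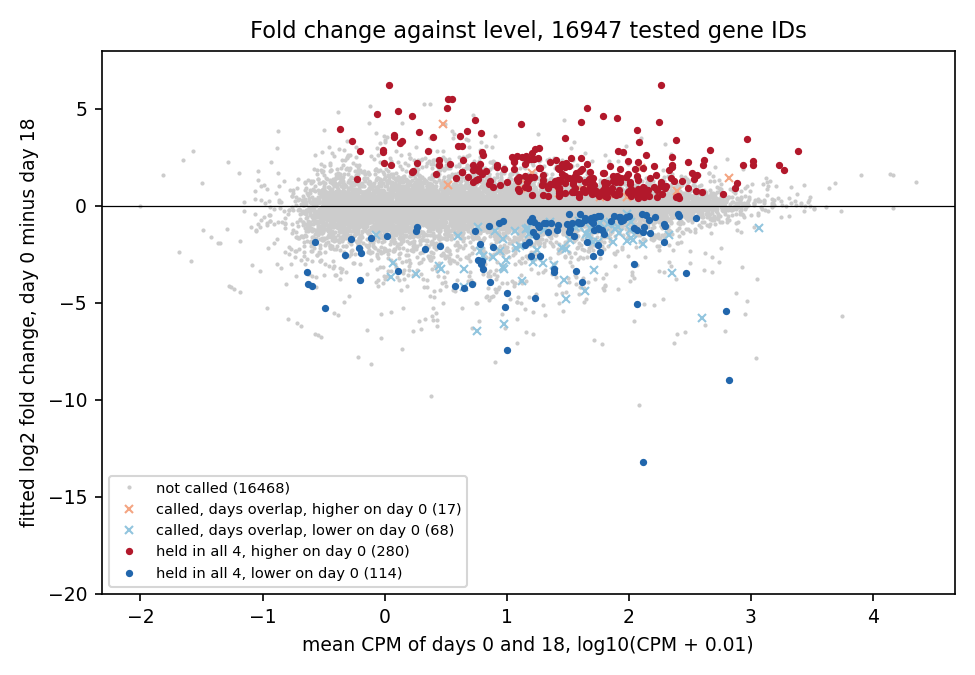
Fitted log2 fold change (day 0 minus day 18) against the mean CPM of both days on a log10 scale, 1 point per tested gene ID. Filled red and blue points are the 280 and 114 held genes, crosses are genes called by the test whose days overlap, and grey points were not called.

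The genes held as higher at estrus differed from day 18 by a median log2 fold change of 1.46 (quartiles 0.91 and 2.21). The fitted difference reached 2-fold in 197 of the 280, 4-fold in 91 and 16-fold in 15. Averaged over the 280 genes and relative to the mean of day 0, log2 CPM was 0.21, −0.02, −0.18 and −0.01 in day 0 replicates 1 to 4. It was −1.43, −1.72, −1.99 and −1.80 in day 18 replicates 1 to 4. Replicate 1 was thus the day 18 library nearest to estrus and replicate 3 the farthest, with a distance of over 1 log2 unit between the closest libraries of both days. Since the genes were selected on these 8 libraries, the distance describes the selection and is not a test.

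Gene by gene, the gap between the lowest day 0 library and the highest day 18 library had a median of 0.47 log2 units among these 280 genes. It was at least 1 in 68 genes and under 0.1 in 29. No gene of the group was without counts on day 18, but 24 stayed under 1 CPM in all 4 day 18 libraries. The group held 3.27% to 5.36% of all counts in the day 0 libraries and 1.13% to 1.70% in the day 18 libraries. The 10 most abundant of the 280 genes made up 42.3% of the group's CPM on day 0, and the single most abundant made up 9.40%. Adjusted p-values were under 0.01 for 53 of the genes and at or above 0.04 for 61.

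The 114 genes held as lower at estrus had a median log2 fold change of −1.30 (quartiles −2.59 and −0.80), and the fitted difference was at least 2-fold in 71, 4-fold in 40 and 16-fold in 14. The fit compares mean levels, so 1 high day 18 library can set a fitted difference, and its size need not hold in each animal. In 1 held gene, for example, day 18 replicates 1 to 4 lay 1.85, 2.02, 8.64 and 3.70 log2 units above the day 0 mean. Their mean log2 CPM relative to day 0 was −0.04, −0.01, 0.02 and 0.04 in day 0 replicates 1 to 4. In day 18 replicates 1 to 4 it was 0.94, 1.54, 2.13 and 1.79. The day 0 libraries were thus nearly level with each other in these genes, while the means of the day 18 libraries ran over more than 1 log2 unit. The medians over genes ran less widely, at 0.70, 1.19, 1.45 and 1.32 in day 18 replicates 1 to 4. Per gene, the median SD was 0.226 on day 0 and 0.508 on day 18, against 0.329 and 0.430 in the genes held as higher. The median gap between the days was 0.29 log2 units. It was at least 1 in 11 genes and under 0.1 in 15. The group took up 0.323% to 0.353% of all counts on day 0 and, on day 18, 0.530% in replicate 1, 0.979% in replicate 2, 1.51% in replicate 3 and 1.14% in replicate 4. Adjusted p-values were under 0.01 for 5 of these genes and at or above 0.04 for 39.

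Within the held groups, day 18 replicate 1 was most often the library nearest to estrus. It was nearest in 154 of the 280 genes that were higher on day 0 (55.0%) and in 70 of the 114 that were lower (61.4%). Replicates 2, 3 and 4 were nearest in 43, 35 and 48 of the former and in 19, 13 and 12 of the latter. On a scale per gene where the mean of day 0 is 0 and the mean of day 18 replicates 2 to 4 is 1, replicate 1 lay at a median of 0.726 in the genes held as higher and 0.470 in those held as lower. It lay nearer to day 0 than to the other 3 in 68 of the former (24.3%) and 59 of the latter (51.8%). With each of the other libraries placed the same way against its 3 companions, replicate 3 lay at 1.20 and 1.25, replicate 2 at 1.02 in both groups, and replicate 4 at 1.02 and 1.13.

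**Figure D2:**
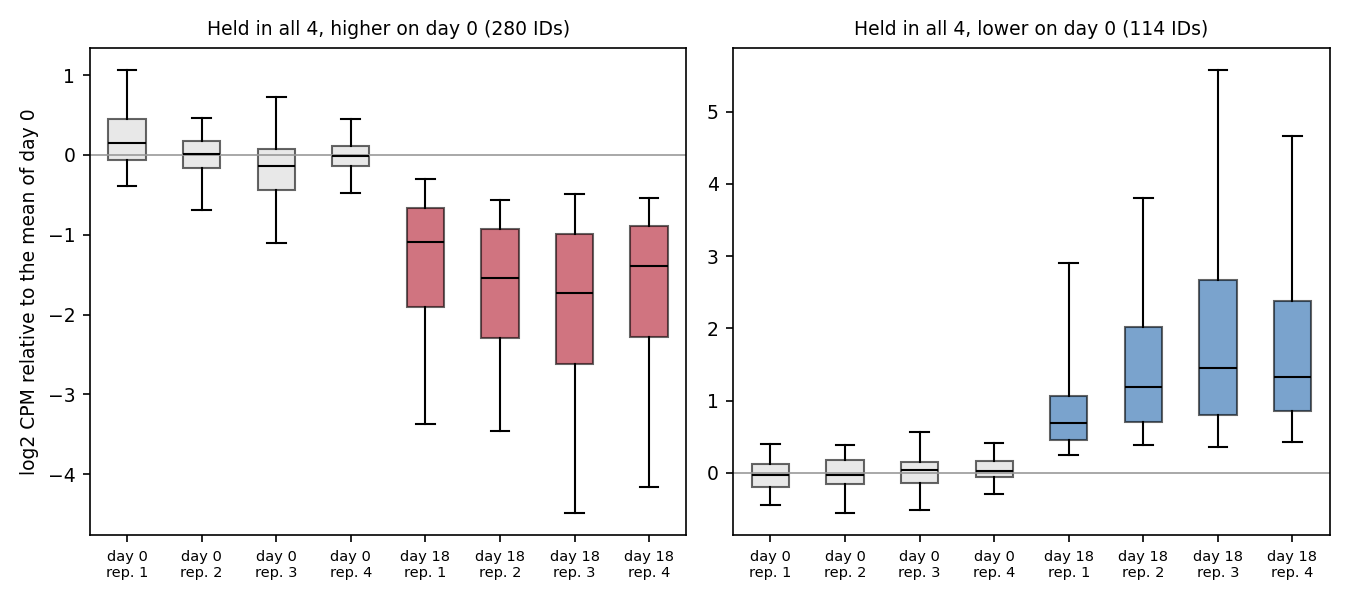
Log2 CPM of each held gene relative to its day 0 mean, by library (boxes: quartiles with the median; whiskers: 5th to 95th percentile of genes; grey, day 0; coloured, day 18). The medians of day 18 replicate 1, −1.09 for the genes higher on day 0 and 0.70 for those lower, lie nearer to 0 than those of the other 3 day 18 libraries.

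The number of held genes changed with each library left out. Such a fit also has fewer animals and a new estimate of spread, and these effects were not separated from those of the single animal. With day 18 replicate 1 left out, 1041 genes held as higher on day 0 and 1124 as lower. Leaving out day 18 replicate 2, 3 or 4 left 105, 123 or 113 higher and 48, 43 or 40 lower. Leaving out day 0 replicate 1, 2, 3 or 4 left 87, 114, 187 or 126 higher and 12, 16, 52 or 23 lower. With day 18 replicates 1 and 3 both left out, 753 and 855 genes held, and a fit of these 8 libraries alone gave 34 and 3. With day 10 replicates 1 and 3 left out, which belong to neither day but enter the low-count filter, the scaling and the shared estimate of spread, 454 and 291 held. Of the 280 and 114 genes, 279 and 114 were still called without day 18 replicate 1, and 85 and 12 without day 0 replicate 1, the fewest over the 8 libraries left out.

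**Figure D3:**
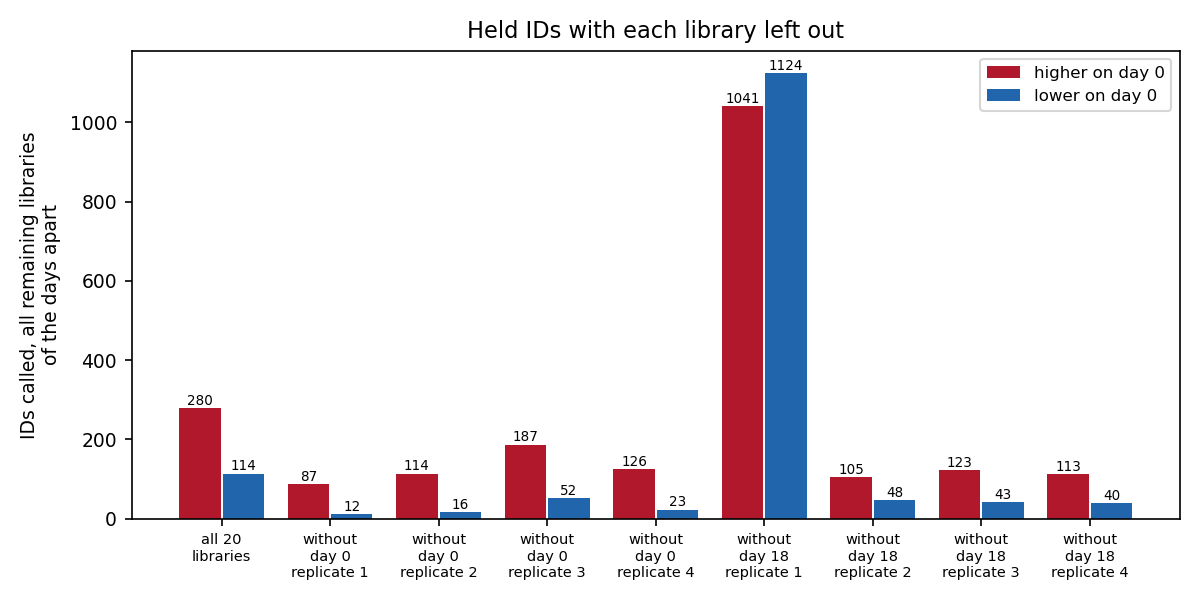
Number of gene IDs called by the test with all remaining libraries of both days apart, for the fit of all 20 libraries and with each of the 8 libraries left out (red, higher on day 0; blue, lower). The bars without day 18 replicate 1 reach 1041 and 1124, and those of the other 7 fits stay at or below 187 and 52.

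A core of 83 held genes was called in the same direction whichever of the 8 libraries was left out. It consisted of 73 genes that were higher at estrus, with a median log2 fold change of 2.05, and 10 that were lower, with a median of −1.99. Of the 73, 39 reached a 4-fold difference and 6 a 16-fold one, and 66 reached a mean of 5 CPM on day 0. Of the 10, 5 reached a 4-fold difference, and 9 reached 5 CPM on day 18. Day 18 replicate 1 lay at a median of 0.785 on the scale from day 0 to the other day 18 libraries in the 73 genes and at 0.404 in the 10. The 4 printed IDs are the 2 largest differences in each direction among the core genes that reached 5 CPM.

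ENSBTAG00000037768 had the largest difference among the genes higher at estrus. It stood at 133, 340, 777 and 208 CPM in day 0 replicates 1 to 4 and at 13.1, 3.46, 2.58 and 0.0428 CPM in day 18 replicates 1 to 4. All 4 animals at estrus were thus at least 10 times above any animal of day 18, and day 18 replicate 4 had a single count where replicate 1 had 282. Mean levels were 364 ± 288 CPM at estrus and 4.80 ± 5.73 CPM at the end of the cycle (SD, n = 4 animals). The fitted log2 fold change was 6.25, with an SE of 1.19 and an adjusted p of 0.0123 by edgeR. Without day 18 replicate 1 the fold change was 7.46, and without day 0 replicate 3 it was 5.54, with edgeR adjusted p-values of 0.00258 and 0.0308. Beside the 1 count of day 18 replicate 4, it had 0 to 3 counts in the libraries of days 10 and 14. On day 5 it had 111 counts in replicate 1 and 5 to 11 in the others.

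ENSBTAG00000031625 was measured at 19.7 CPM in day 0 replicate 1 and at 3.84, 1.44 and 2.59 CPM in replicates 2 to 4. On day 18 it had 2, 7, 0 and 4 counts in replicates 1 to 4, or at most 0.303 CPM. The days did not overlap, and 1 heifer at estrus was several times above the other 3. Mean levels were 6.90 ± 8.61 CPM at estrus and 0.142 ± 0.128 CPM at the end of the cycle (SD, n = 4 animals). The log2 fold change came to 5.52, with an SE of 1.02 and an edgeR adjusted p of 0.0110. Without day 0 replicate 1 it was 4.10, with an edgeR adjusted p of 0.0401, and without day 18 replicate 2 it was 6.16, with 0.0303. In this gene day 18 replicate 1, with 2 counts, was not the library nearest to estrus.

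ENSBTAG00000018287 had the largest difference among the core genes lower at estrus. It had 4, 10, 6 and 17 counts in day 0 replicates 1 to 4, or 0.181 to 0.688 CPM. On day 18 it reached 3.40 CPM in replicate 1 and 8.70, 8.53 and 7.79 CPM in replicates 2 to 4. The 3 latter libraries lay close together and replicate 1 lay below them, still above every animal at estrus. Levels averaged 0.404 ± 0.231 CPM at estrus and 7.10 ± 2.50 CPM at the end of the cycle (SD, n = 4 animals). The log2 fold change came to −4.11, with an SE of 0.69 and an edgeR adjusted p of 0.00714.

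ENSBTAG00000014456 was almost constant at estrus, with 4.31, 4.13, 3.99 and 4.04 CPM in day 0 replicates 1 to 4. The day 18 libraries were at 8.51, 31.1, 116 and 21.9 CPM in replicates 1 to 4. Replicate 1 was thus the lowest and replicate 3 the highest, with more than a 10-fold range between them, and all 4 lay above day 0. Levels averaged 4.12 ± 0.140 CPM at estrus and 44.3 ± 48.5 CPM at the end of the cycle (SD, n = 4 animals). The log2 fold change came to −3.43, with an SE of 0.59 and an edgeR adjusted p of 0.00762. Without day 18 replicate 3 it was −2.34, with an edgeR adjusted p of 0.0176. The value in replicate 3 was close to those of day 10 replicates 1 and 3, which had 99.3 and 115 CPM, while the other 2 libraries of day 10 had 41.4 and 38.8 CPM.

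**Figure D4:**
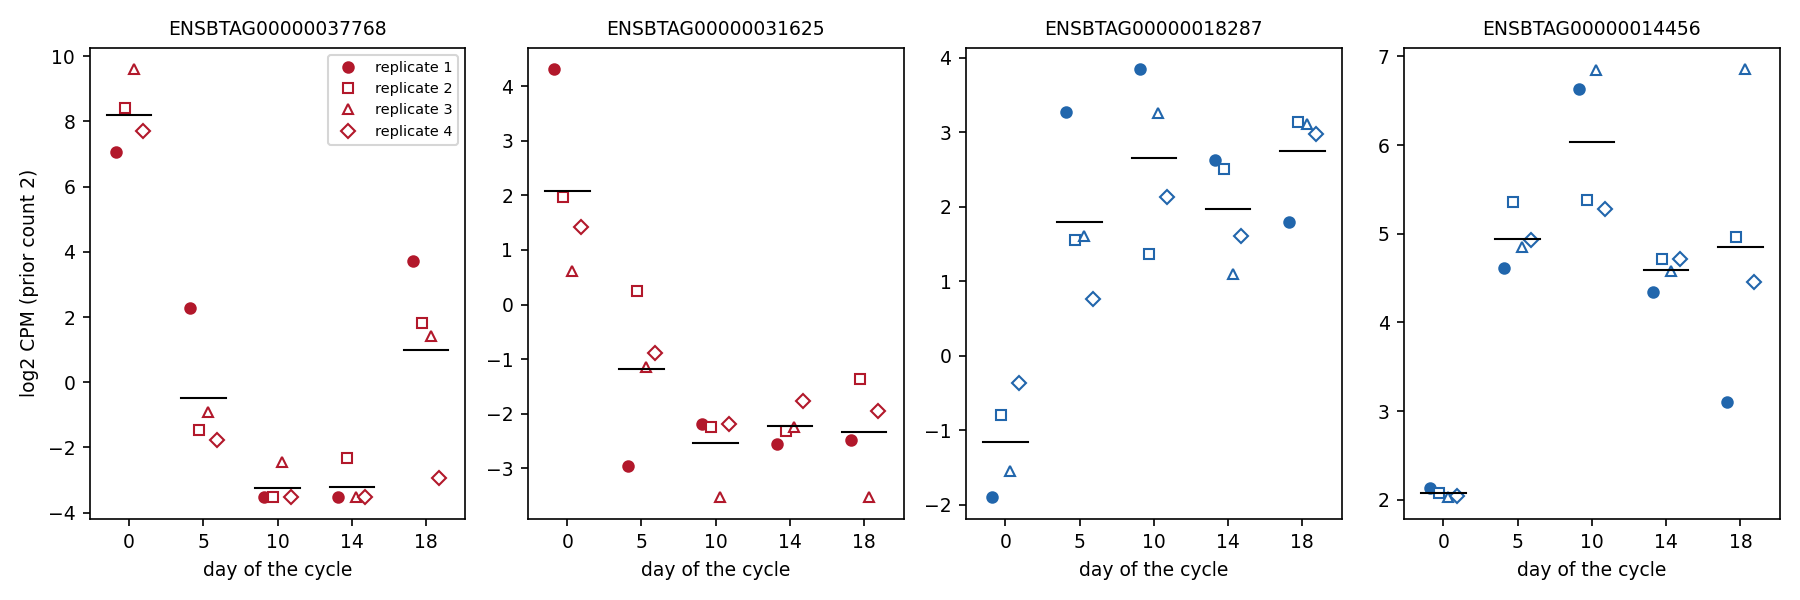
Log2 CPM (prior count 2) of the 4 printed gene IDs in all 20 libraries, by day of the cycle, with the mean of each day as a bar. For each ID the 4 day 0 libraries and the 4 day 18 libraries do not overlap, and replicate 1 of day 18 (replicate 1 of every day is filled) is the day 18 library nearest to day 0 in 3 of the 4.

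On day 18 the held genes stood at about the level of day 14, the late luteal phase. In log2 CPM relative to day 0, the genes held as higher at estrus were at −1.50 ± 0.188, −1.88 ± 0.283, −1.76 ± 0.0508 and −1.74 ± 0.234 on days 5, 10, 14 and 18 (SD, n = 4 libraries each). The genes held as lower averaged 1.36 ± 0.148, 1.76 ± 0.302, 1.66 ± 0.0919 and 1.60 ± 0.502 on the same days. In CPM, the median gene of the first group was at 54.0 on day 0 and at 21.7, 19.6, 20.3 and 19.5 on days 5, 10, 14 and 18. The median gene of the second group went from 14.7 on day 0 to 34.1, 41.9, 37.3 and 44.3. All these values share the day 0 libraries on which the genes were selected. The day 18 libraries were part of the selection too, so the distance of day 18 from day 0 describes the selection. Genes in which a day 18 library overlapped day 0 were left out by the same rule. Libraries of day 18 ran from −1.99 to −1.43 and from 0.94 to 2.13, wider than those of day 14, at −1.83 to −1.71 and 1.58 to 1.77.

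Days 5 and 14 share no library with the comparison of day 18 and day 0, so the same genes were read there as a separate measurement. Between day 5 and day 14, the edgeR test called 98 of all 16947 genes higher on day 14 (0.578%) and 102 lower (0.602%). Of the 114 genes held as lower at estrus, 6 rose from day 5 to day 14 (5.26%) and 0 fell. An unadjusted p under 0.05 was reached by 37 of them (32.5%), against 21.2% of all genes tested. Their median log2 fold change was 0.23, against −0.01 over all genes tested. Of the 280 genes held as higher at estrus, 2 rose and 3 fell (0.714% and 1.07%), near the share over all genes, 64 (22.9%) had an unadjusted p under 0.05, and the median was −0.18. All 5 days share the dispersion estimates of 1 fit.

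A further set of genes separated day 18 replicates 2 to 4 from estrus but not replicate 1. Without replicate 1, the edgeR test called 1075 of 17178 genes higher on day 0 (6.26%) and 1270 lower (7.39%). In 1046 of the former and 1087 of the latter, also tested with all libraries, replicates 2 to 4 lay beyond every day 0 library. Replicate 1 lay beyond them too in 440 and 333. It lay within the range of day 0 in 325 and 389, and beyond day 0 on the opposite side in 281 and 365. The last 2 groups make 606 genes higher and 754 genes lower at estrus, here called tied to replicate 1. Of these, 11 and 66 passed the test with all 20 libraries, and the call of the others rested on leaving out replicate 1.

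In these 1360 genes the means of replicate 1 lay past the level of estrus, on the side that the selection favored. The 606 genes averaged −1.24, −1.51 and −1.39 in day 18 replicates 2 to 4 relative to day 0, and 0.31 in replicate 1, above each of the 4 day 0 libraries, which ran from −0.10 to 0.19. The 754 genes averaged 1.18, 1.48 and 1.30 in replicates 2 to 4 and −0.38 in replicate 1, below the day 0 libraries at −0.16 to 0.16. Replicate 1 lay past the day 0 range in 46.4% of the former and 48.4% of the latter. Over all 16947 genes it lay above that range in 31.9% and below it in 30.4%. The genes were selected for replicate 1 not lying with the other 3, so these means and shares describe the selection. The shares over all genes carry no such condition and are not a like comparison.

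In the fit without replicate 1, the difference reached 2-fold in 313 of the 606, 4-fold in 121 and 16-fold in 22. Among the 754 the numbers were 445, 162 and 33. Over the luteal days 5, 10 and 14, the 606 averaged −0.77 ± 0.0987, −1.35 ± 0.246 and −1.37 ± 0.0339 relative to day 0 (SD, n = 4 each). The 754 averaged 0.71 ± 0.128, 1.23 ± 0.113 and 1.25 ± 0.0394. Day 18 replicates 2 to 4 lay beside the libraries of days 10 and 14 in both sets, and replicate 1 beyond those of day 0. The rule set replicates 2 to 4 beyond day 0 and kept replicate 1 from that side. Their distances from day 0 therefore describe the selection. Between days 5 and 14, 8 of the 606 genes fell (1.32%) and 0 rose, and 20 of the 754 rose (2.65%) and 0 fell. An unadjusted p under 0.05 was reached by 208 (34.3%) and 300 (39.8%), against 21.2% of all genes tested. The median log2 fold changes were −0.51 and 0.51. Days 5 and 14 also entered the estimate of spread by which these genes were called, so these shares are not independent of the selection.

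**Figure D5:**
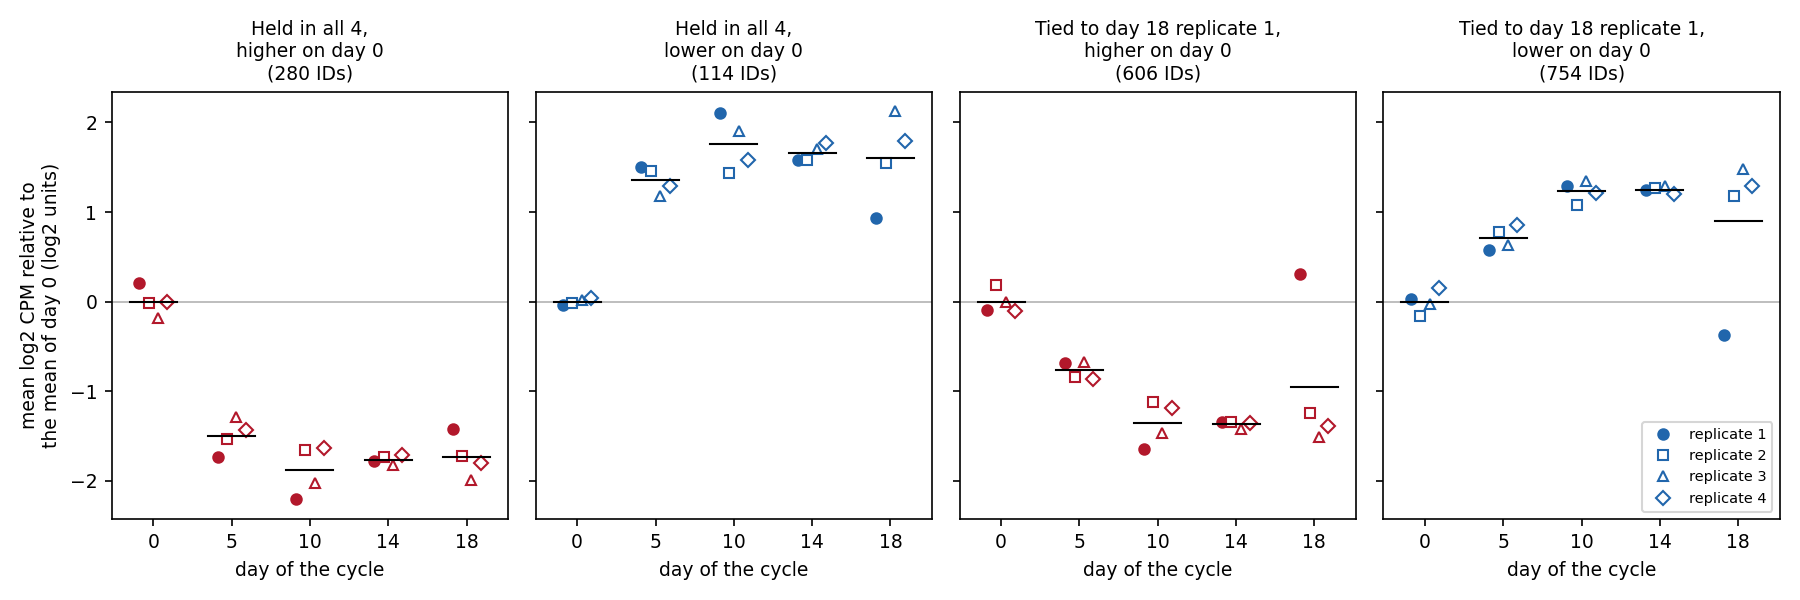
Mean log2 CPM relative to the day 0 mean for the held genes (left pair) and the genes tied to day 18 replicate 1 (right pair), 1 point per library and a bar for the mean of each day. In the right pair replicate 1 of day 18 (replicate 1 of every day is filled) stands at 0.31 and −0.38, beside or past day 0, and the other 3 day 18 libraries beside days 10 and 14.

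The same rule applied to each of the other day 18 libraries gave few genes. For replicates 2, 3 and 4 it found 2, 7 and 3 genes higher at estrus, or 1.90%, 5.69% and 2.65% of the calls made without that library, and 5, 7 and 4 lower, or 7.58%, 12.7% and 7.69%. For replicate 1 the shares were 56.7% and 59.6%. In the fits for replicates 2, 3 and 4, replicate 1 stayed in and had to lie beyond every day 0 library. The numbers for replicate 1 and for the others are thus not a like comparison. Over all genes, the median distance from the day 0 mean was 0.438 log2 units in replicate 1 and 0.484, 0.542 and 0.460 in replicates 2, 3 and 4. Day 0 libraries lay at 0.191 to 0.269 from the mean of the other 3. In replicate 1, 10558 genes (62.3%) lay outside the range of the 4 day 0 libraries. In replicates 2, 3 and 4 the shares were 66.4%, 69.8% and 64.5%. A further day 0 library would also leave that range in many genes, so these shares are not distances from 0. A distance of at least 4-fold from the day 0 mean was reached by 3.55% of genes in replicate 1, 5.41% in replicate 2, 13.1% in replicate 3 and 6.24% in replicate 4. Each day 0 library, set against the mean of the other 3, had 0.820% to 1.10% of genes at that distance.

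Neither of 2 measures of whole libraries passed a test between the days. The share of counts in a library's 50 most abundant genes was 20.3% ± 0.579 at estrus and 16.2% ± 5.77 at the end of the cycle (SD, n = 4 each), a difference of 4.03 percentage points. The difference was 2.28 without day 18 replicate 4, 2.54 without replicate 2 and 6.19 without replicate 3. A two-sided exact permutation test gave p = 0.314, or 0.629 after adjustment over 2 measures, where 4 against 4 libraries cannot give less than 0.0286. On day 18 replicates 1 and 3 were at 19.5% and 22.7%, and replicates 2 and 4 at 11.8% and 11.0%. A level of 1 CPM was reached by 14504.5 ± 60.7 genes at estrus and 14495.5 ± 339 at the end of the cycle (SD, n = 4 each, exact permutation p = 0.886, adjusted p = 0.886). Replicates 1 and 3 had 14210 and 14201 such genes, fewer than any day 0 library, and replicates 2 and 4 had 14847 and 14724, more than any.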

How the data were processed

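Poly(A) RNA of endometrial biopsies was sequenced from TruSeq stranded libraries, per the labels' protocols. The deposited values are raw counts per gene ID, 1 file per library. FastQC, STAR and edgeR are named, without versions, in the submitters' processing notes. Not given in the sources used here are the genome build, annotation, counting program and use of strand, so reads of antisense partners or near-identical copies may not be told apart. The RefSeq gene table at hand (37063 cattle genes) paired 0 of the 27607 IDs with a symbol, and the gene lists and cell type markers drawn up by symbol could not be applied.

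Groups and replicate numbers came from each sample's title. The edgeR p-values rest on a spread between animals of the same day that is estimated over all 20 libraries. They do not measure the spread of days 0 and 18 alone. No 2 libraries of day 0 or 18 agreed within sampling noise (chi-square per degree of freedom 42.0 or more over 12 pairs). The fit used edgeR 4.0.16 under R 4.3.3: filterByExpr, TMM factors, 1 mean per day over all 20 libraries, robust quasi-likelihood fit, F-test of day 0 minus day 18, and Benjamini-Hochberg adjustment over all tested IDs (threshold 0.05). The SE is the log2 fold change divided by the square root of F. The test was tested on simulated data that gave each gene the same spread on all days and no library that stood apart, unlike these data. IDs were named by rule: the 2 largest differences per direction among held IDs with a mean of at least 5 CPM on the higher day and called with each of the 8 libraries left out. Permutation tests used scipy 1.17.1. Alternatives were RLE factors, total counts, other filters, DESeq2 1.42.0, limma 3.58.1 voom, the 8 libraries alone, a replicate block, a 2-fold threshold and each library left out. Leaving out pairs of libraries was added after seeing the data. The comparison and its rules were chosen with earlier results of these data known.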

Additional observations from a re-analysis of the deposited data

Results flagged for a closer look

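In 10 of 60 groups of 4 libraries examined, 1 library lay apart by its gap as a share of the group's range. The limit was Dixon's 95% critical value for 4 samples, which about 1 in 20 independent, normally spread groups pass by chance. CPM near 0 and gene groups read in the same libraries are not of that kind, so the number passing is not a test. Of the 10 groups, 2 follow from how the genes tied to day 18 replicate 1 were selected: the mean log2 CPM relative to day 0 of day 18 replicate 1 was 0.31 in those higher at estrus and −0.38 in those lower. In the former set day 14 replicate 3 also lay apart, at −1.42, from 3 libraries at −1.36 to −1.35.

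ENSBTAG00000018287 was at 3.40 CPM in day 18 replicate 1, below the other 3, and at 9.61 CPM in day 5 replicate 1, above the other 3. ENSBTAG00000031625 was at 19.7 CPM in day 0 replicate 1 and at 0 in day 10 replicate 3, where the other libraries of that day had 3 counts each. ENSBTAG00000037768 was at 4.78 CPM in day 5 replicate 1. It was at 0.0990 CPM in day 10 replicate 3 and at 0.115 CPM in day 14 replicate 2, which are 2 and 3 counts against 0 in the other libraries of those days.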

How the results depend on the processing

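Counts of genes moved with most settings, and the cause was not tested. For calls higher on day 0, lower on day 0, held as higher and held as lower, the counts of 297, 182, 280 and 114 became 745, 921, 586 and 398 with DESeq2 and 1200, 868, 535 and 266 with limma voom. With only the 8 libraries in the fit they were 34, 3, 34 and 3. Against a 2-fold change glmTreat of edgeR called 8, 0, 8 and 0, with 886 genes at an unadjusted p under 0.05. Without a low-count filter 119 genes were called lower and 73 held as lower. Without day 18 replicates 1 and 3 the counts were 753, 866, 753 and 855, and without day 10 replicates 1 and 3 they were 514, 511, 454 and 291. With 1 library left out they ranged from 87 to 1075, 18 to 1270, 87 to 1041 and 12 to 1124. RLE factors, total counts and a filter at 1 CPM kept all 4 within 1.5 times. A replicate block gave 261, 113, 251 and 76. The labels do not say that the numbers pair animals, and deviations of same-numbered libraries of days 0 and 18 correlated at −0.12, −0.37, −0.08 and 0.20, so not every library correlated best with its own number. Of the 394 held genes, 279 and 114 were called the same way by DESeq2.

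ENSBTAG00000037768, ENSBTAG00000031625 and ENSBTAG00000014456 were called under 17 of 19 alternatives and ENSBTAG00000018287 under 18. None of the 4 passed the test against a 2-fold change, and the first 3 did not pass with the 8 libraries alone, where the edgeR adjusted p was 0.110, 0.110 and 0.118. The difference in genes at 1 CPM or more, 9, turned to −42.8 at 5 CPM and ranged from −89.2 to 126 with 1 library left out. At 0 to 17 counts per library, as for ENSBTAG00000031625 on day 18 and ENSBTAG00000018287 on day 0, counting error limits the fold change.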
